A study of Mus musculus with 9 samples.

Results

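The 9 CHD genes of the mouse, Chd1 to Chd9, encode ATP-driven chromatin remodellers, and their transcripts were measured by RNA sequencing of the medial ganglionic eminence (MGE) at embryonic day 14.5. The set was built around Chd5, which was selected on its normalized counts in this same comparison, because it stood higher in every Ctnnb1 knockout library. The other 8 genes are the rest of that family, taken with earlier results of these data known. All 9 genes were found, each as 1 Ensembl identifier, among the 48526 identifiers of the table. All 9 were among the 13780 genes that passed the filter on low values (a mean of at least 10 normalized counts over the libraries).

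Knockout libraries (n = 5) came from C57BL/6 embryos with both Ctnnb1 alleles floxed (Ctnnb1fl/fl), together with Nkx2.1-cre and the Rosa26-YFP reporter. Control libraries (n = 4) came from C57BL/6 embryos with Nkx2.1-cre and Rosa26-YFP and no floxed allele, except control replicate 4, which was Ctnnb1fl/wt and so carried 1 floxed allele. Both groups therefore carry the Cre transgene and the YFP reporter, and Cre acts in cells with a history of Nkx2-1 expression, so cells of other origin in the tissue keep their alleles. The labels speak of collected MGE cells or of removed MGE tissue without saying which applies, and do not tie a library to an embryo. The p-values therefore cover library-to-library spread, some of which may be technical.

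The libraries held 5120585 to 5569444 counted reads and 20274 to 22903 genes above 0, and the depths of the groups overlapped. Ctnnb1, the targeted gene for beta-catenin, had 7103, 7661, 7133, 6572 and 5477 normalized counts in knockout replicates 1 to 5, against 9841, 9960, 9967 and 9545 in control replicates 1 to 4. It was lower in all 5 knockouts (log2 fold change -0.54, SE 0.096; exact two-sided permutation p = 0.00794, the smallest this design can give). The MGE gene Nkx2-1 was present in every library, at 3466 to 5304 normalized counts in knockout and 4389 to 6698 in control. Of 5 MGE markers, 2 were higher in knockout and 0 lower by limma. Called either way, 2 of 5 is near the 34.5% over all tested genes, where 17.2% were higher and 17.3% lower. Control replicate 1 stood apart: 8 genes of dorsal telencephalon and cortical neurons summed to 2864 normalized counts there, against 265 to 743 in the knockouts and 134 to 240 in the other controls. Its 6 choroid plexus genes summed to 2998, against 155 to 720 in the knockouts and 162 to 362 in the other controls. None of the 8 dorsal and 4 choroid plexus genes that were tested passed between the groups. Nor did any of the 5 blood, 5 microglia and 7 vessel markers tested. Control replicate 1 widens the spread of the dorsal and choroid plexus genes, so this does not show that the groups were alike in them. Apart from that library, the dorsal sum was higher in every knockout than in every control. Results without control replicate 1 or the heterozygous control replicate 4 are given below where a CHD call or a list's count changed. In bulk tissue, fewer cells of a type and less RNA per cell cannot be told apart.

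CHD proteins share tandem chromodomains, which dock on histone tails or nucleic acid, and a SNF2-type ATPase motor, which slides or evicts nucleosomes. CHD1 and CHD2 act at transcribed genes. CHD3, CHD4 and CHD5 carry paired PHD fingers and are alternative motors of the nucleosome remodelling and deacetylase complex (NuRD), which couples remodelling to histone deacetylation; in the developing mouse cortex the complex changes its motor as progenitors become neurons, and CHD5 is known as a neuronal member. CHD6 to CHD9 form the remaining subfamily, in which CHD7 is the gene of human CHARGE syndrome and CHD8 is a binding partner of beta-catenin.

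The promoter sequences of the NuRD motors are shown because Chd5 and Chd4 lie at the far ends of the family, Chd5 with the largest difference between the groups and Chd4 with the smallest. RefSeq promoter windows (GRCm38.p6) matched 5 of the 9 genes, Chd4, Chd5, Chd6, Chd8 and Chd9, and the 250 bases before the annotated start are used. For Chd5, chr4:152338401-152338650 on the plus strand, capitals mark a match to the X-box palindrome read by RFX factors. For Chd4, chr6:125095731-125095980 on the plus strand, capitals mark GTTGCC, the first 6 letters of that motif.
Chd5: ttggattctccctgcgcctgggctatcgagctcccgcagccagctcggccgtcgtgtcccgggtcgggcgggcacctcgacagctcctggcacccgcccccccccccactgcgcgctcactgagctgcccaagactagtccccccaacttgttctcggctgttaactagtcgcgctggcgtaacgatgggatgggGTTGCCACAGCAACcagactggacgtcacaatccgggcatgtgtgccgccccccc
Chd4: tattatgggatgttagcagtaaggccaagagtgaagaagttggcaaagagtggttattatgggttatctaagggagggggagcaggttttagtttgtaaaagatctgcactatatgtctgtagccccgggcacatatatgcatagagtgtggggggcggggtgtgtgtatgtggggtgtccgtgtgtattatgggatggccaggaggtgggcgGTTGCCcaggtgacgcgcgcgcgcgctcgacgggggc

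The X-box palindrome was searched on both strands as the capitals in Chd5 with the middle 3 bases left free, a pattern chosen after the Chd5 sequence had been read. It begins 55 bases before the Chd5 start and was found in none of the other 4 CHD windows. Of the 27025 promoters of the table, 0.118% hold it, and 10.5% hold GTTGCC. That shorter motif, which is contained in the palindrome, also matched Chd4, 37 bases before its start, and Chd8. CTTTGAT, a form of the TCF/LEF motif through which beta-catenin partners bind DNA, is held by 3.23% of all promoters and was in none of the 5 windows. Its other common form, CTTTGAA, is held by 4.64% of promoters and was in none of them either. The proneural E-box CAGCTG (12.8% of promoters) matched Chd9. A further E-box form, CAGATG, held by 14.5% of promoters, matched none of the 5. The cyclic AMP element TGACGTCA, held by 1.62%, matched none of them. All of these motifs were chosen with the results known. The Chd5 window holds 21 CpG dinucleotides and the Chd4 window 12, against a median of 6 over all promoters. As many or more are held by 16.1% of promoters for Chd5 and 33.8% for Chd4. The Chd6, Chd8 and Chd9 windows hold 19, 20 and 16. These matches describe letters in a short window and do not show binding.

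Chd5 (ENSMUSG00000005045, chromosome 4, 152338651 to 152390194, mm10, plus strand, protein-coding) had 187, 182, 186, 255 and 310 normalized counts in knockout replicates 1 to 5, against 43.5, 62.6, 64.3 and 39.9 in control replicates 1 to 4. The groups were far apart: the lowest knockout library was 2.83 times the highest control. The mean was 224 ± 57.2 (SD, n = 5) in knockout and 52.6 ± 12.7 (SD, n = 4) in control, a ratio of 4.26. The log2 fold change on log2(normalized count + 1) was 2.07 (SE 0.193), and 0.559% of the tested genes had a larger one. These values chose the gene, so they are a description and no p-value is given for them.

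Chd5 also varied within each group. Knockout replicates 1, 2 and 3 lay close together at 3.46 to 3.56 times the control mean, while replicate 4 stood at 4.86 times and replicate 5 at 5.91 times. Knockout replicate 5, the highest for Chd5, was also the library with the least Ctnnb1, 55.7% of the control mean, and replicate 2, the lowest for Chd5, kept the most, 77.9%. Among the controls, replicates 2 and 3 were the higher pair, with a mean of 63.4, and replicates 1 and 4 the lower, with a mean of 41.7. Against control replicates 2 and 3 alone the log2 fold change of Chd5 was 1.77. With 5 and 4 libraries a group, no relation within a group was tested.

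**Figure D1:**
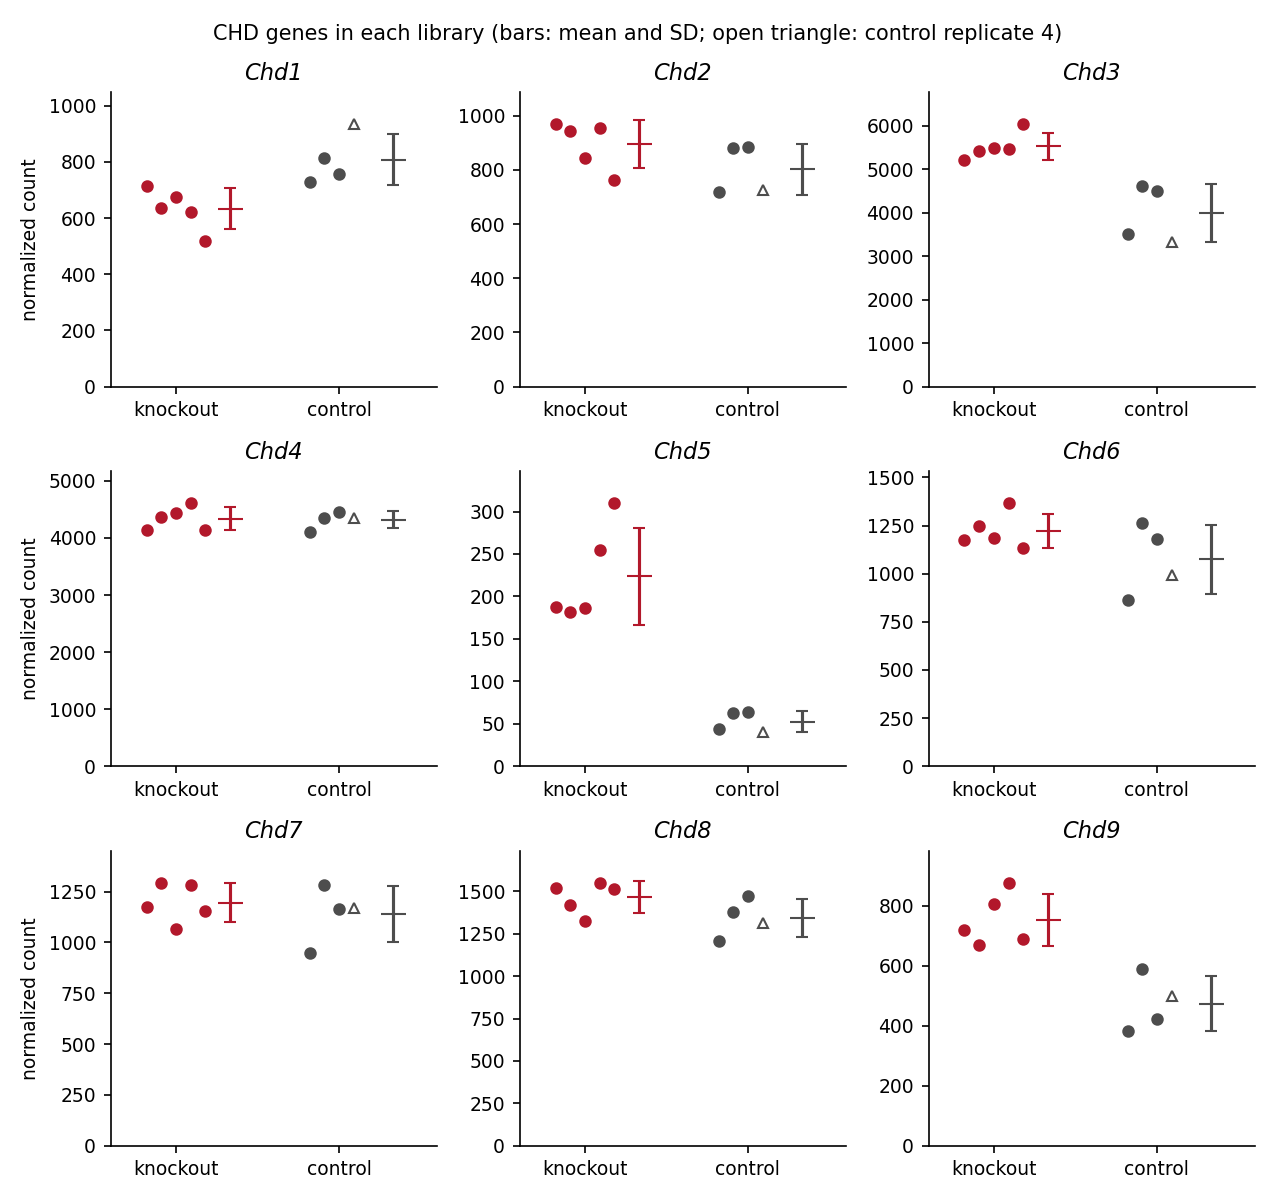
Normalized count of each CHD gene in every knockout (red) and control (grey) library, where side bars give each group's mean ± SD; the open triangle is the heterozygous control replicate 4. Chd5, Chd3 and Chd9 lie higher in all 5 knockouts and Chd1 lower, while the groups overlap for the other 5 genes.

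Of the other 8 members, 2 were higher in knockout by limma, Chd3 and Chd9, 1 was lower, Chd1, and 5 did not pass an adjusted p of 0.05. Over all tested genes 17.2% were higher and 17.3% lower, 34.5% in all, so 3 of 8 is near the background and is not a result about the family. The median log2 fold change of these 8 genes was 0.15, against -0.01 over all tested genes. The groups did not overlap for the same 3 genes, where 29.1% of all tested genes had no overlap, 14.5% being higher and 14.6% lower.

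Chd3 (chromosome 11, 69343273 to 69369406, minus strand), the NuRD motor most abundant in the knockouts, had 5213, 5417, 5481, 5470 and 6052 normalized counts in knockout replicates 1 to 5, against 3501, 4621, 4504 and 3337 in control replicates 1 to 4. Every knockout library was above every control, and replicate 5 was again the highest. The mean was 5527 ± 313 (SD, n = 5) in knockout and 3991 ± 665 (SD, n = 4) in control, and limma gave a log2 difference of 0.48 (SE 0.106, adjusted p = 0.00312). The controls split as they did for Chd5, with replicates 2 and 3 above 1 and 4. With control replicates 2 and 3 alone the log2 fold change was 0.28 (adjusted p = 0.0403 by limma), below that with all 4 controls. After a correction for transcript length and GC content it was 0.18 and did not pass (adjusted p = 0.111 by limma).

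Chd4 (chromosome 6, 125095981 to 125130591, plus strand), the motor of NuRD in proliferating cells, had 4145, 4363, 4446, 4612 and 4137 normalized counts in knockout replicates 1 to 5, against 4111, 4356, 4461 and 4342 in control replicates 1 to 4. The groups overlapped almost entirely, and this was the steadiest member, with a coefficient of variation of 4.68% in knockout and 3.43% in control. The log2 fold change was 0.01 with a 95% interval of -0.16 to 0.17 (adjusted p = 0.951 by limma). The correction for length and GC content turned this to -0.22 (adjusted p = 0.043 by limma), so the direction for Chd4 depends on that choice.

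Levels of different genes were compared per kilobase of annotated exon. Chd4 had 541 ± 25.3 (SD, n = 5) normalized counts per kilobase in knockout and 538 ± 18.4 (SD, n = 4) in control, and Chd3 had 655 ± 37.1 in knockout and 473 ± 78.8 in control. Chd5 had 23.4 ± 5.97 in knockout and 5.48 ± 1.32 in control, so it remained the least abundant of the NuRD motors in both groups. Its share of the summed level of the 3 motors was 1.69%, 1.57%, 1.58%, 2.13% and 2.56% in knockout replicates 1 to 5, against 0.487%, 0.595%, 0.612% and 0.442% in control replicates 1 to 4. The mean share was 1.91% ± 0.43 (SD, n = 5) in knockout and 0.534% ± 0.0827 (SD, n = 4) in control, a description with no test. The ratio of Chd3 to Chd4 per kilobase was 1.13 to 1.39 in knockout and 0.73 to 1.01 in control, without overlap; this ratio was not tested.

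**Figure D2:**
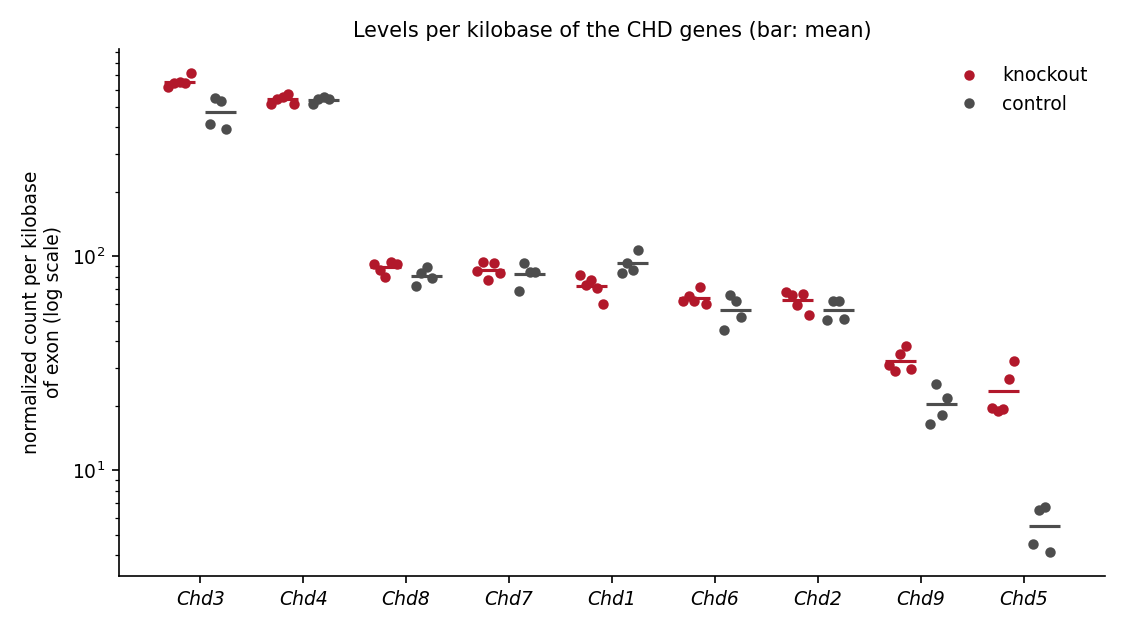
Normalized count per kilobase of exon (log axis) of the CHD genes in each knockout (red) and control (grey) library, ordered by the knockout mean; bars are group means. Chd3 and Chd4 lie at 395 or higher in every library, and Chd5 lies at 19 to 32.4 in knockout and 4.16 to 6.71 in control.

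The order of levels per kilobase in knockout was Chd3, Chd4, Chd8, Chd7, Chd1, Chd6, Chd2, Chd9 and Chd5. Chd3 and Chd4 were set apart from each other and from Chd8, and Chd2 from Chd9, by ranges that did not overlap, while the neighbours from Chd8 down to Chd2, and Chd9 and Chd5, overlapped. In control the order was Chd4, Chd3, Chd1, Chd7, Chd8, Chd6, Chd2, Chd9 and Chd5. There Chd4 and Chd3 overlapped, as did Chd1 with Chd7, Chd7 with Chd8 and Chd6 with Chd2, and Chd5 lay below Chd9 in all 4 controls without overlap. Chd3, Chd4 and Chd5 together made up 75.0% ± 1.45 (SD, n = 5) of the summed level of the 9 genes in knockout and 72.3% ± 1.37 (SD, n = 4) in control.

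Chd9 (chromosome 8, 90828352 to 91054516, plus strand), of the CHD6 to CHD9 subfamily, had 719, 670, 807, 878 and 690 normalized counts in knockout replicates 1 to 5, against 382, 589, 422 and 501 in control replicates 1 to 4. All knockout libraries were above all controls, with control replicate 2 nearest to them. The mean was 753 ± 87.5 (SD, n = 5) in knockout and 474 ± 91.5 (SD, n = 4) in control, a ratio of 1.59, for which limma gave a log2 difference of 0.68 (SE 0.125, adjusted p = 0.00103). Chd9 passed in every alternative fit that was run, with log2 fold changes of 0.58 to 0.79 when 1 library was left out and 0.46 after the correction for length and GC content.

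Chd1 (chromosome 17, 15704967 to 15772610, plus strand), which binds the methylated histone mark of active promoters, was the member that fell. It had 714, 637, 675, 623 and 519 normalized counts in knockout replicates 1 to 5, against 729, 812, 756 and 936 in control replicates 1 to 4. The groups did not overlap, though knockout replicate 1 and control replicate 1 nearly met, and the heterozygous control was the highest library. The mean was 633 ± 73.3 (SD, n = 5) in knockout and 808 ± 91.9 (SD, n = 4) in control, and limma gave a log2 difference of -0.35 (SE 0.106, adjusted p = 0.0192). Without control replicate 4 it was -0.28 and did not pass (adjusted p = 0.0777 by limma), nor did it against control replicates 2 and 3 alone (adjusted p = 0.0873).

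Chd8, Chd7, Chd6 and Chd2 did not pass the test, and their groups overlapped. Chd8 (chromosome 14) had 1467 ± 92.8 normalized counts in knockout and 1342 ± 113 in control, a log2 fold change of 0.13 with a 95% interval of -0.06 to 0.32. Chd7 (chromosome 4, as is Chd5) had 1194 ± 95.7 in knockout and 1140 ± 139 in control, with an interval of -0.14 to 0.28. Chd6 (chromosome 2) had 1222 ± 90.1 in knockout and 1075 ± 180 in control, with an interval of -0.04 to 0.43, and control replicate 1 was its lowest library at 865. These intervals include 0 and reach further above it than below, so the values do not show that the genes were alike in the groups. After the correction for length and GC content all 4 log2 fold changes, Chd2 included, were below 0 and did not pass.

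Chd2 (chromosome 7) had 764 to 971 normalized counts in knockout and 717 to 886 in control, with a 95% interval of -0.06 to 0.38. Its neighbour 1810026B05Rik, the long noncoding RNA now named Chaserr, represses Chd2 in mouse. That RNA had 312 to 431 normalized counts in knockout and 275 to 513 in control and did not pass. In the annotation 18.4% of the exon bases of Chd2 are shared with this RNA on the same strand, so reads there cannot be assigned to either gene. The level of Chd2 per kilobase was taken over all its exon bases, the shared ones included. Its place in the order of levels is therefore uncertain. Rnf227, listed in older annotation as Chd3os, had 257 ± 15.8 normalized counts in knockout and 209 ± 10.2 in control (log2 fold change 0.29, adjusted p = 0.0255 by limma). Its call was lost without control replicate 1 (adjusted p = 0.0605), control replicate 3 (0.0568), knockout replicate 2 (0.0501) or knockout replicate 3 (0.0544), and against control replicates 2 and 3 alone (0.12), all by limma. The transcript annotated antisense to Chd5, Gm13645, was at 0 in all 9 libraries.

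**Figure D3:**
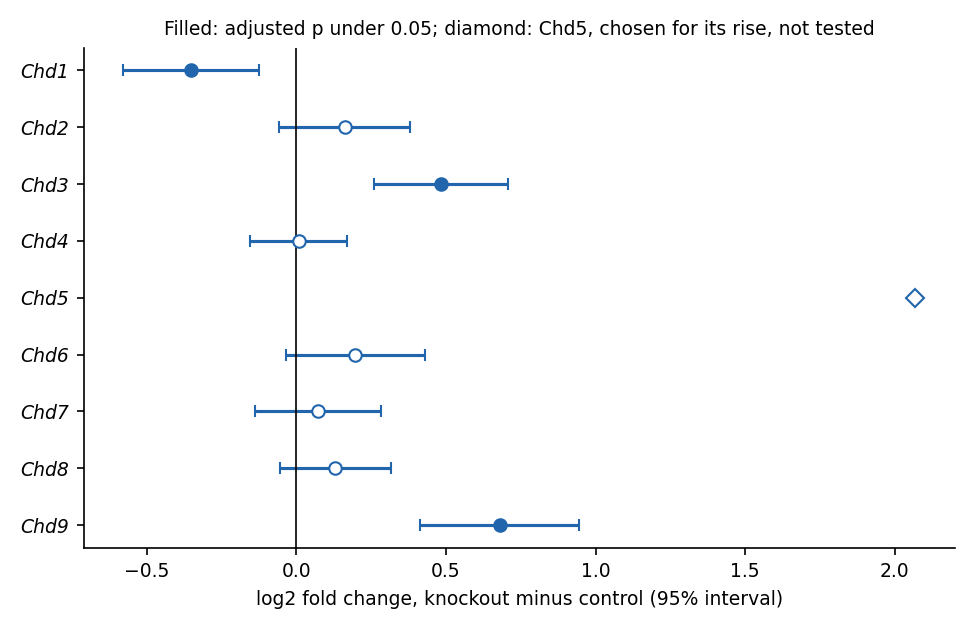
Log2 fold change of each CHD gene, knockout minus control on log2(normalized count + 1), with the 95% interval from limma; a filled point passed an adjusted p of 0.05, and Chd5 (diamond) is shown without an interval because it was chosen for its rise. Chd5 lies at 2.07, Chd9 at 0.68, Chd3 at 0.48, Chd1 at -0.35, and the intervals of the other 5 genes include 0.

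Within 100 kilobases of Chd5 on chromosome 4 there were 6 other tested protein-coding genes, of which 1 was higher, 1 lower and 4 did not pass by limma. That share is near the 34.5% called over all tested genes. Kcnab2, a potassium channel beta subunit which lies 0.547 kilobases past the end of Chd5, had 94.7 to 131 normalized counts in knockout and 105 to 121 in control. Rpl22, a ribosomal protein gene on the other side, had 1263 to 1525 in knockout and 1345 to 1810 in control. Neither passed, nor did Icmt and Nphp4. Gpr153, an orphan receptor gene 53.3 kilobases away, had 59.6 to 176 in knockout and 17.1 to 31.9 in control (log2 fold change 1.82, adjusted p = 0.000511 by limma), and the thioesterase gene Acot7 was lower (-0.40, adjusted p = 0.0419 by limma).

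The genes whose profile over the 9 libraries lay nearest to Chd5 were Pde4dip, Cux2, Myt1l, Nmnat2, Drp2, Csdc2, Agap2 and Hivep3. Likeness was the root mean square difference between log2 profiles, each centred on its own mean, among 9693 other genes with a mean of at least 50. It was 0.138 for Pde4dip and 0.227 for Hivep3, against a median of 1.09 over all genes compared. Pde4dip, an anchor of phosphodiesterase at the centrosome and Golgi, had 2419 ± 539 normalized counts in knockout and 584 ± 162 in control. Cux2, a homeobox factor of neurons, had 2276 ± 614 in knockout and 550 ± 198 in control, and the neuronal zinc finger factor Myt1l had 628 ± 131 in knockout and 166 ± 40.2 in control. Within the CHD family the nearest to Chd5 were Chd9 (0.764) and Chd3 (0.812) and the farthest was Chd1 (1.27). Since Chd5 was chosen for its difference between the groups, genes near it share that difference by construction.

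Between the groups, neuron markers moved with Chd5 and progenitor markers moved the other way. Of 10 neuron markers, 8 were higher in knockout and 0 lower by limma, with a median log2 fold change of 1.04, and none was at 0; over all tested genes 17.2% were higher and 17.3% lower. Their summed level was 28135 to 36391 normalized counts in knockout and 15202 to 19349 in control, and control replicates 1 and 4, the lower pair for Chd5, were also the lower pair here. Within the groups the orders did not match throughout. Knockout replicate 3 had a neuron sum of 34515 with Chd5 at 186, while replicate 4 had 32097 with Chd5 at 255. Among the controls, replicate 2 had the highest neuron sum and replicate 3 the highest Chd5. Of 10 radial glia and other progenitor markers, 0 were higher and 7 lower (median -0.83), with a summed level of 16285 to 24774 in knockout and 31907 to 38205 in control; knockout replicate 5, highest for Chd5, was the lowest of all. Per 1000 normalized counts of the neuron markers there were 5.38 to 8.53 of Chd5 in knockout and 2.52 to 3.41 in control. Chd5 was chosen for its large difference between the groups, so this ratio is a description only. Syt1, a synaptic vesicle calcium sensor on the same list, differed more than Chd5, with a log2 fold change of 2.23 (adjusted p = 0.000394 by limma). The part of tissue makeup in the values of Chd5, Chd3, Chd9 and Chd1 was not tested.

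**Figure D4:**
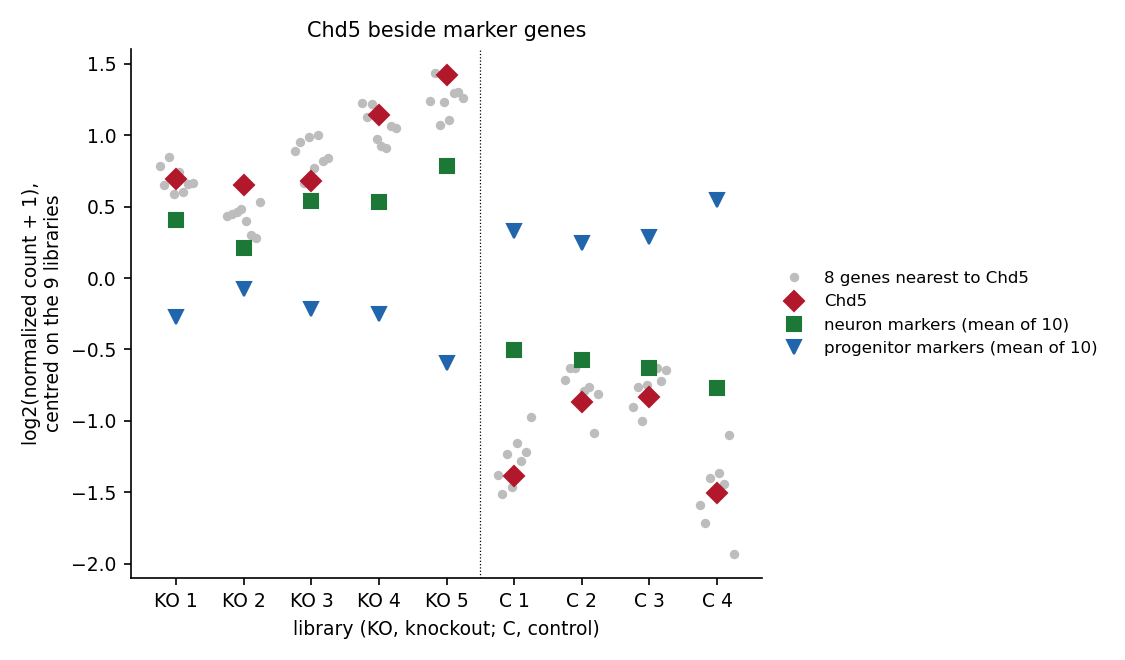
Log2(normalized count + 1) of Chd5 (diamonds), of the 8 genes nearest to it in profile (grey) and of the mean of 10 neuron markers (squares) and 10 progenitor markers (triangles), each centred on its mean over the 9 libraries; KO is knockout and C is control. Chd5 and the neuron markers lie above 0 in all 5 knockouts and below 0 in all 4 controls, and the progenitor markers do the reverse.

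None of the subunits that the NuRD motors share was higher in knockout. Of 12 measured, 5 fell and 7 did not pass by limma, against 17.3% lower over all tested genes, and the median log2 fold change was -0.21, against -0.01. Rbbp7, a histone chaperone subunit, had 592 ± 104 (SD, n = 5) normalized counts in knockout and 999 ± 103 (SD, n = 4) in control (log2 fold change -0.77, SE 0.13, adjusted p = 0.000637 by limma). Gatad2a, the zinc finger subunit that bridges to the motor, had 600 ± 13.4 in knockout and 815 ± 13.1 in control, with a log2 fold change of -0.44. Cdk2ap1 (-0.56), the deacetylase Hdac1 (-0.46) and the chaperone Rbbp4 (-0.40) also fell, and in each of these 5 genes all knockouts were below all controls. The same held for Mta1, which did not pass, so 6 of the 12 were lower without overlap. Over all tested genes 14.6% were lower without overlap. Hdac2, the more abundant deacetylase per kilobase, had 2588 ± 281 normalized counts in knockout and 2746 ± 198 in control and did not pass; neither did Mta1, Mta2, Mta3, Mbd2, Mbd3 and Gatad2b. Against control replicates 2 and 3 alone 3 of the 12 fell, Hdac1 having an adjusted p of 0.0514 by limma, and after the correction for length and GC content 8 fell, while the count over all tested genes moved to 2839 lower and 2136 higher. Progenitor markers fell in the same libraries, and their part in these values was not tested.

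Of 9 genes for CHD4 partners in the ADNP complex and CHD8 partners in the MLL core, 0 rose and 5 fell, against 17.3% lower over all tested genes (median -0.32). The heterochromatin proteins Cbx1 (-0.41) and Cbx5 (-0.38), Adnp2 (-0.33), the WD-repeat scaffold Wdr5 (-0.32) and Dpy30 (-0.38) fell, whereas Adnp itself had 116 ± 7.89 normalized counts in knockout and 102 ± 21.1 in control. Without control replicate 1, 4 fell. Without control replicate 4, 3 fell, and Cbx5 had an adjusted p of 0.0735 by limma. Against control replicates 2 and 3 alone 2 fell, and Adnp2 (adjusted p = 0.0747) and Wdr5 (0.0501) did not pass by limma.

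Of 11 ISWI genes, 1 rose and 4 fell, against 34.5% called either way over all tested genes (median -0.03). Baz1a, the ACF subunit, had 203 ± 23.1 normalized counts in knockout and 343 ± 44.2 in control (-0.76, SE 0.116, adjusted p = 0.000356 by limma). The ISWI motor Smarca5 (-0.46), Pole3 (-0.49) and Baz1b (-0.25) also fell, while Baz2a, of the nucleolar remodelling complex, rose (0.38). The second ISWI motor, Smarca1, had 129 ± 31 in knockout and 108 ± 11 in control and did not pass. Without control replicate 4, 1 ISWI gene rose and 3 fell. Against control replicates 2 and 3 alone 0 rose and 2 fell; Baz2a (adjusted p = 0.137), Smarca5 (0.0628) and Pole3 (0.0631) did not pass by limma, and Baz2a did not pass after the correction for length and GC content (0.284).

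Over all tested genes 34.5% were called, 17.2% being higher and 17.3% lower. Of 11 genes of INO80, SRCAP, EP400 and other SNF2 remodellers, 0 rose and 3 fell (median 0.06). Those were Hells, the lymphoid-specific helicase of dividing cells (-1.10), Ttf2 (-1.04) and Chd1l (-0.86), a remodeller recruited by poly(ADP-ribose) that bears a CHD name but has no chromodomains. Hells had 367 ± 132 normalized counts in knockout and 750 ± 95.2 in control, and against control replicates 2 and 3 alone its adjusted p was 0.0893 by limma. Ino80, Srcap, Ep400, Atrx and the other 4 genes of this list did not pass. Over the 4 lists together 1 of 43 genes rose and 17 fell, with a median of -0.19, where 17.2% of all tested genes were higher and 17.3% lower. Against control replicates 2 and 3 alone 0 rose and 9 fell, and the count over all tested genes also dropped, to 1370 higher and 1108 lower. Without control replicate 1, 1 list gene rose and 16 fell, with 2091 of all tested genes higher and 2006 lower. Without control replicate 4, 1 rose and 14 fell, with 1847 of all tested genes higher and 1682 lower.

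**Figure D5:**
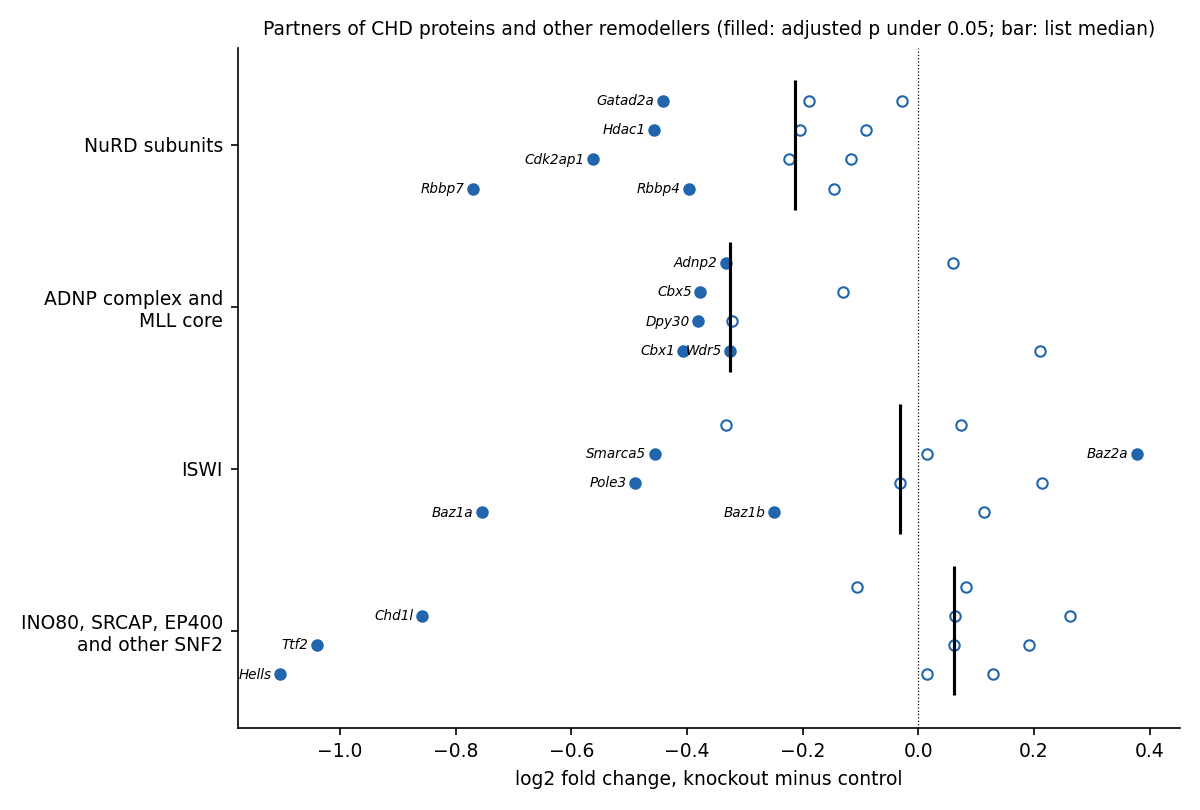
Log2 fold change, knockout minus control on log2(normalized count + 1), of each measured gene of 4 lists of CHD partners and other remodellers; filled, named points have an adjusted p under 0.05 by limma and a bar marks the median of each list. All 12 NuRD subunits lie below 0, 5 of them filled, and Baz2a is the one filled point above 0.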

How the data were processed

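Per the labels' protocols, total RNA (500 ng per library) was extracted with Trizol and prepared for sequencing by a NEBNext Ultra kit. The deposited signal is the authors' normalized count per gene; in each library the values above 0 were whole multiples of 1 step within 0.01, which gave size factors of 0.989 to 1.04. Per the submitters' processing notes, the tools included HTSeq 0.9.1, TopHat2 2.1.1, DESeq2 and R 3.4.0, with the build mm10. Their roles, the annotation release and the strand setting were not given in the sources used here, and overlapping genes cannot be told apart. No count model was run. Depth intervals are not given, since the values are normalized. Symbols, positions and exon lengths came from GENCODE M21 (GRCm38), which matched 48058 of 48526 identifiers, and promoters from RefSeq.

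The test was a two-sided limma fit (limma 3.58.1 under R 4.3.3, robust and with a trend through statmod 1.5.0). It used log2(normalized count + 1) of the 13780 genes whose mean reached 10, p-values adjusted by Benjamini-Hochberg and called under 0.05; a fold change on that scale understates that of low genes. The procedure was run on simulated data in which a small part of the genes was changed, each by 1 log2 unit or more. That simulation does not cover smaller differences, such as those of Chd3, Chd9 and Chd1. Members and lists were chosen with earlier results of these data known. Named genes are the 9 members, Ctnnb1, the 8 genes nearest to Chd5, and from each list the called genes, up to 4 by smallest p; Rbbp4, Dpy30, Baz1b, Syt1, the neighbours of Chd5 and genes named as not passing were named outside that rule after their values were seen. The correction for length and GC content, a loess curve of span 0.5 in each library, the promoter motifs, the genes within 100 kilobases of Chd5 and the ratio of Chd5 to neuron markers were added after seeing the data.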

Additional observations from a re-analysis of the deposited data

Results flagged for a closer look

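Over 52 groups of libraries, each a named gene in knockout or in control, 1 value lay far from the others of its group by Dixon's test. Chd1l had 105 normalized counts in control replicate 2, against 132 to 138 in the other controls. Chance flags about 1 in 20 groups.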

How the results depend on the processing

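Over all genes, 1370 were higher and 1108 lower against control replicates 2 and 3 alone. Of the 8 CHD genes tested, the number lower in knockout was 0 in that comparison, 0 with the replicate number as a block and 0 to 1 when 1 library was left out, the call lost being Chd1; after the correction for length and GC content 1 was higher and 2 were lower, Chd4 turning to -0.22 and Chd5 giving 1.68. Against control replicates 2 and 3 alone, 0 genes of the 4 lists were higher and 9 lower: 3 NuRD, 2 ADNP and MLL, and 2 ISWI genes were lower and 0 ISWI genes higher. The length and GC correction left 0 list genes higher (0 in the ISWI list) and 8 NuRD genes lower. In the ADNP and MLL list 3 fell with the replicate block, and 3 to 6 when 1 library was left out. The cause of these shifts was not tested. Deviations of same-numbered libraries correlated at -0.117, -0.092, 0.137 and -0.041, and those of differently numbered libraries at -0.211 to 0.314. These values show no pairing by replicate number but cannot exclude a weak one. Under the replicate block Chd1 was at -0.28 (adjusted p = 0.0764 by limma). No control has replicate number 5, so knockout replicate 5 adds nothing to the group difference in that fit. The fold change of Chd1 there was the same as without knockout replicate 5.

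Per kilobase of the longest transcript in place of all exons, the knockout means were 98.6 for Chd2, 761 for Chd3, 648 for Chd4, 116 for Chd6, 117 for Chd7, 172 for Chd8 and 62.7 for Chd9; the control means were 88.3 for Chd2, 645 for Chd4, 102 for Chd6, 112 for Chd7, 158 for Chd8 and 39.4 for Chd9. Chd5 stayed lowest and Chd3 and Chd4 highest in both groups, while the order between them depended on the length used. Chd1 moved below Chd6 and Chd2 in knockout. In control it moved below Chd8, Chd7 and Chd6, and Chd8 moved above Chd7. The share of Chd5 among the NuRD motors was 1.75% to 1.99% in knockout and 0.508% to 0.565% in control when 1 library was left out. The other pseudocounts, filters, scalings, weights and the sex covariate changed no call of the 8 CHD genes or Ctnnb1. Embryo sex was inferred in each library from its value of Xist against the sum of Ddx3y, Kdm5d, Eif2s3y and Uty. With the length and GC correction Chd4 changed sign and passed (adjusted p = 0.043 by limma), and Chd2 (-0.04), Chd6 (-0.04), Chd7 (-0.21) and Chd8 (-0.09) changed sign without passing, while 2136 of all genes were higher and 2839 lower. Signs also turned, without passing, for Chd4 with library weights and without control replicate 1, knockout replicate 3 or knockout replicate 4, for Chd7 without control replicate 1, and for Chd4, Chd6 and Chd7 against control replicates 2 and 3 alone, where the lowest was Chd7 at -0.03. Without a filter on low values Adnp2 (adjusted p = 0.0595) and Rnf227 (0.144) lost their calls by limma, as they did with the replicate block (0.0669 and 0.09).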
